A study of Mus musculus with 6 samples.

Results

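The bone morphogenetic protein (BMP) pathway was followed through 9 genes, the ligand genes Bmp2, Bmp4, Bmp5 and Bmp7, the antagonist genes Grem1, Nog and Chrdl1, and the target genes Id1 and Id3. They were chosen by symbol from the 55487 genes of a table of log2 RPKM (reads scaled to gene length in kilobases and to library size), in which each symbol has 1 entry. Expression was measured by RNA-seq of whole small intestine of C57BL/6 mice, in 3 wild-type libraries (WT) and 3 libraries of Lgr5-2A-DTR mice (DTR). These mice make a receptor for diphtheria toxin from the Lgr5 locus, a gene active in stem cells of the crypt base, and cells that express it die on exposure to the toxin. Mice of both genotypes were adults older than 8 weeks and were given 20 µg of diphtheria toxin per kg daily over 4 days, so that the wild-type group carries the toxin but not its receptor. Tissue was taken 6 h after the last dose. Nothing in the labels states that the libraries come from different mice, so the p-values here reflect the spread among libraries, part of which may be technical.

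BMPs are secreted ligands that bind paired type I and type II receptor kinases, which phosphorylate SMAD1, SMAD5 and SMAD9, and these enter the nucleus with SMAD4. In the small intestine BMP activity is high along the villus and low at the crypt base, where mesenchymal cells secrete antagonists such as gremlin 1 that bind the ligands and keep them from their receptors. Id1 and Id3 encode helix-loop-helix proteins without a DNA-binding region and are textbook direct targets of BMP-activated SMADs.

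Lgr5 transcripts were low in all DTR libraries. Lgr5 (chromosome 10, 115450311 to 115587780) was covered by 229 to 315 reads per WT library and by 22, 0 and 34 reads in DTR replicates 1, 2 and 3. All DTR libraries lay below all WT libraries, and the mean level was 12.7-fold lower in DTR. It lay below the filter on low expression. Fitted without that filter, its log2 difference was -5.40 (SE 1.79, limma adjusted p = 0.112), which did not pass 0.05. With 0 reads, the log2 RPKM of DTR replicate 2 (-11.4) was set by the small count added before the log. It lay far from DTR replicates 1 (-4.90) and 3 (-4.22), which widens the SE and enlarges the log2 difference. Reads in genes numbered 61404574 to 76596766 per library. Of 15563 tested genes, 2845 (18.3%) passed an adjusted p of 0.05 in limma, 1360 (8.74%) lower and 1485 (9.54%) higher in DTR, and 47.7% of genes showed no overlap between the WT and DTR ranges. The count of genes passing depended on single libraries. Leaving out WT replicate 1, 2 or 3 gave 152, 157 or 207 genes, and leaving out DTR replicate 1 or 3 gave 5605 or 1010. The groups also differed in sex-linked transcripts, with Xist at 16 to 38 reads in WT and 22432 to 24279 in DTR, so that genotype and this sex pattern cannot be told apart in any comparison here. Epithelial markers were abundant in every library (summed level of 7 markers 4321 to 4750 RPKM in WT and 3997 to 5958 RPKM in DTR). Exocrine pancreas transcripts were abundant too, with 6 markers summing to 12192 to 35881 RPKM in WT and 7976 to 25525 RPKM in DTR.

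Levels per length differed widely among the 9 genes. In WT the order of mean RPKM was Id1 (66.0), Id3 (48.3), Bmp2 (6.60), Grem1 (2.54), Bmp4 (2.38), Bmp5 (1.27), Bmp7 (0.845), Chrdl1 (0.249) and Nog (0.195). Neighbours in this order whose WT ranges overlapped were Grem1 and Bmp4, Bmp5 and Bmp7, and Chrdl1 and Nog. In DTR the order differed only in that Bmp7 (0.660) stood above Bmp5 (0.462), and the DTR ranges of Id1 and Id3, of Bmp2 and Grem1 and of Bmp5 and Chrdl1 overlapped.

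Of the 8 members that passed the filter on low expression (a mean log2 RPKM above -2), 2 fell in DTR and none rose. The pair that fell were the ligand genes Bmp4 and Bmp5, beside 8.74% of all tested genes that were lower in DTR. The median log2 change of the 8 was -0.43, against 0.03 over all tested genes. All DTR libraries lay below all WT libraries for 2 of the 8 (22.6% of all tested genes) and above them for 1 (25.1%). Nog lay below the filter and is described by its reads. The count of 2 became 0 without WT replicate 1, 2 or 3 or without DTR replicate 3, and 1 without DTR replicate 2.

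**Figure D1:**
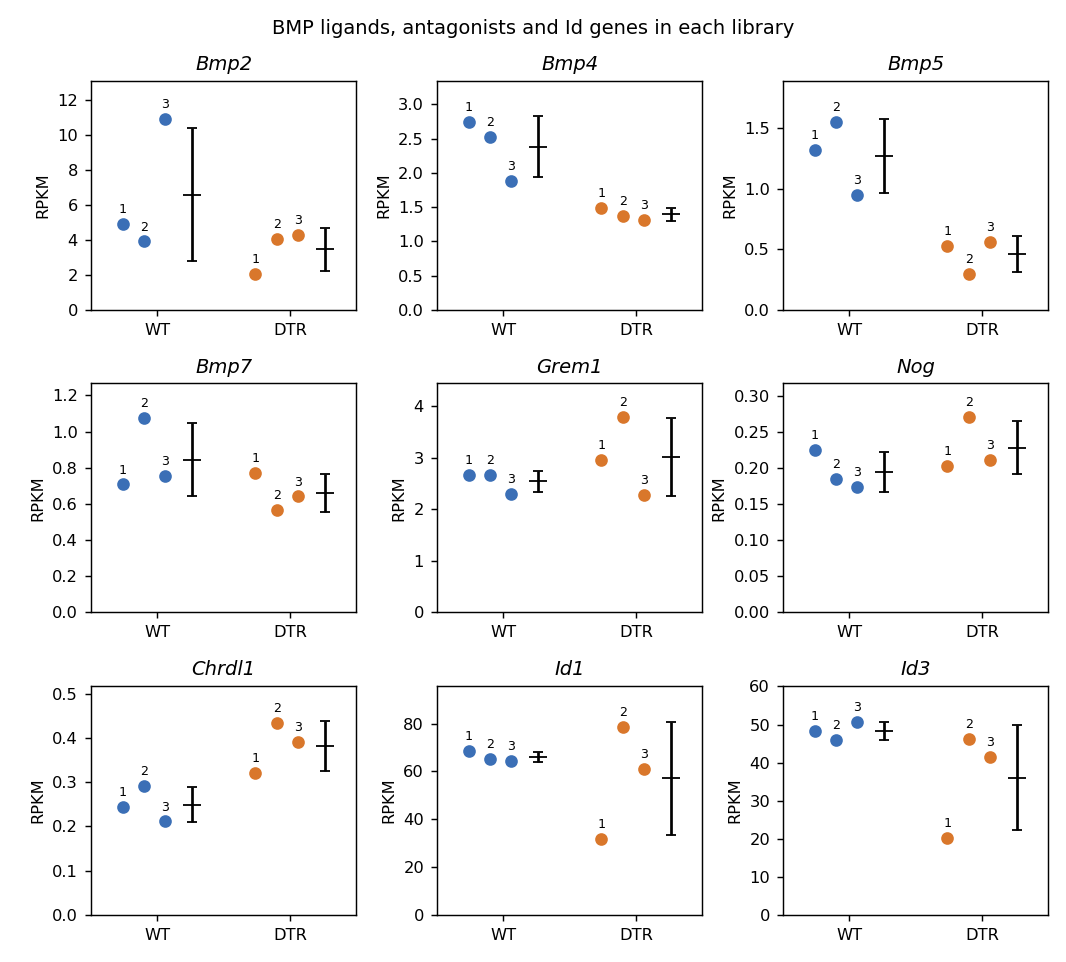
Level in RPKM (vertical axes, from 0) of the 9 genes in the WT (blue) and DTR (orange) libraries, with the replicate number over each point and the mean ± SD (n = 3) in black. All DTR points lie below all WT points for Bmp4 and Bmp5 and above them for Chrdl1, and DTR replicate 1 is the lowest point for Bmp2, Id1 and Id3.

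Bmp5 encodes a ligand made mainly by intestinal mesenchyme and had the largest change of the 9 genes. Bmp5 (ENSMUSG00000032179.7, mm10, chromosome 9, 75775364 to 75900310, plus strand) stood at 1.32, 1.55 and 0.948 RPKM in WT replicates 1, 2 and 3 and at 0.529, 0.296 and 0.561 RPKM in DTR replicates 1, 2 and 3. The groups did not overlap, and DTR replicate 2 was the lowest library. The mean level was 2.76-fold lower in DTR, at 0.462 ± 0.145 RPKM against 1.27 ± 0.305 RPKM (SD, n = 3 per group). The log2 change was -1.49 (SE 0.35, 95% interval -2.32 to -0.66; limma adjusted p = 0.0352). These levels rest on 289 to 393 reads per WT library and 73 to 140 per DTR library. The change kept its sign in all 16 other settings that gave a value, but the limma adjusted p was 0.123, 0.129 and 0.0924 without WT replicates 1, 2 and 3 and 0.0637 without DTR replicate 3. An antisense gene that overlaps Bmp5, Gm26903, had at most 4 reads in any library.

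Bmp4 encodes a ligand of the villus mesenchyme that is close to BMP2 in sequence. Bmp4 (ENSMUSG00000021835.15, chromosome 14, 46383520 to 46390669, minus strand) stood at 2.74, 2.52 and 1.89 RPKM in WT replicates 1, 2 and 3 and at 1.49, 1.37 and 1.31 RPKM in DTR replicates 1, 2 and 3. The groups did not overlap, and the DTR libraries lay close to each other while WT replicate 3 lay lowest in WT. The mean level was 1.71-fold lower in DTR, at 1.39 ± 0.0912 RPKM against 2.38 ± 0.444 RPKM (SD, n = 3 per group). The log2 change was -0.76 (SE 0.20, 95% interval -1.24 to -0.27; limma adjusted p = 0.0475). This p lay just under the threshold, and the call was lost in 8 of 17 other settings, among them limma voom on reads (adjusted p = 0.0574). Without WT replicates 1, 2 and 3 the limma adjusted p was 0.171, 0.162 and 0.0912, and without DTR replicates 2 and 3 it was 0.0744 and 0.105. An antisense gene inside Bmp4, Gm15222, was assigned 34 to 75 reads per WT library and 2 to 50 per DTR library, against 183 to 455 for Bmp4. Without the strand setting of the counting, which the sources used here do not give, reads of this stretch cannot be assigned to either strand with certainty.

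Bmp2 and Bmp7, ligand genes that are also transcribed in epithelium, did not pass. Bmp2 (ENSMUSG00000027358.6, chromosome 2, 133552159 to 133562885, plus strand), the highest of the 4 member ligand genes, stood at 4.93, 3.92 and 10.9 RPKM in WT replicates 1, 2 and 3 and at 2.06, 4.09 and 4.29 RPKM in DTR replicates 1, 2 and 3. The groups overlapped, with WT replicate 3 far above the rest and DTR replicate 1 far below. The log2 difference was -0.85 (SE 0.46, 95% interval -1.95 to 0.25; limma adjusted p = 0.212), and it was -0.41 without WT replicate 3 and -0.51 without DTR replicate 1. Bmp7 (ENSMUSG00000008999.7, chromosome 2, 172868012 to 172940321, minus strand) stood at 0.707, 1.07 and 0.752 RPKM in WT replicates 1, 2 and 3 and at 0.773, 0.567 and 0.642 RPKM in DTR replicates 1, 2 and 3. WT replicate 2 was its highest library, and DTR replicate 1 lay above the other WT libraries. Its log2 difference was -0.34 (SE 0.27, 95% interval -0.99 to 0.30; limma adjusted p = 0.374).

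The 300 bases around the start of the member genes that fell, Bmp4 and Bmp5, of the inhibitory SMAD gene Smad6, added after its fall was seen, and of Id3, which did not pass, are shown because SMADs and other BMP-linked factors are known to bind near promoters. The sequences are RefSeq's on GRCm38.p6 and run from 250 bases before the start to 50 bases from it on. Only the 9 members and Smad6 were looked up, and entries were matched for 4 of the 9 members and for Smad6. Capitals mark each match, on either strand, to the SMAD1/5 GC box GGCGCC, the SMAD box CAGAC, the GLI site GACCACCCA, the forkhead site TGTTTAC or the TATA box TATAAA, and no matches overlapped.
Bmp5, chr9:75775115-75775414, plus strand: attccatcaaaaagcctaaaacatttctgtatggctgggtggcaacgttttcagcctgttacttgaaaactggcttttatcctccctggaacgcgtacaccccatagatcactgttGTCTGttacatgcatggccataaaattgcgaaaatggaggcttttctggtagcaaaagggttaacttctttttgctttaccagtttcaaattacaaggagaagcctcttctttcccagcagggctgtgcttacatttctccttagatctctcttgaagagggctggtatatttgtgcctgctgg
Bmp4, chr14:46390620-46390919, minus strand: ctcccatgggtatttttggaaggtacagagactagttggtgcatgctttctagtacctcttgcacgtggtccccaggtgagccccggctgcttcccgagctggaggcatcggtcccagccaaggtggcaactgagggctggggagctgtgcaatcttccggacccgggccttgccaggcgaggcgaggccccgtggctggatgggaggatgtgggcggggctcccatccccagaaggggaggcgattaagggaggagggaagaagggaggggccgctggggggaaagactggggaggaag
Smad6, chr9:64022010-64022309, minus strand: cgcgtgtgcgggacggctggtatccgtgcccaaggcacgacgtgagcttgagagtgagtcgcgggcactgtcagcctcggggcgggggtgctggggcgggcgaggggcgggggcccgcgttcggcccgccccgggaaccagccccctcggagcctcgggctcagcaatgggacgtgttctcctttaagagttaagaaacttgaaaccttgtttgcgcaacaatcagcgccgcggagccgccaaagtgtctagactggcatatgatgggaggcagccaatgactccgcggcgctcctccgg
Id3, chr4:136143572-136143871, plus strand: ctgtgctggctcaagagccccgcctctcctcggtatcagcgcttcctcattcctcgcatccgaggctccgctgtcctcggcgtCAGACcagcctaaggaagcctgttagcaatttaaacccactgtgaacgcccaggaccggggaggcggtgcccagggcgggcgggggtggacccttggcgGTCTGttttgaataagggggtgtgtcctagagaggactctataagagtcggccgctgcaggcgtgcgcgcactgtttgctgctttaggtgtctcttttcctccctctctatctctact
The window of Bmp5 held a SMAD box beginning 134 bases before the start on the minus strand. That of Id3 held SMAD boxes at 167 bases (plus strand) and 68 bases (minus strand) before the RefSeq start. GENCODE M21 begins Id3 upstream of this window, so the window and its boxes lie inside the gene as placed there (136143497 to 136145755). None of the motifs was found in the windows of Bmp4 or Smad6. The window of Grem1, not printed, held the GC box 78 bases before the start and SMAD boxes 219 bases before and 17 bases after it. The SMAD box is common, with a match in 49.6% of 32851 windows of the same length, while the GC box was in 11.9%, the TATA box in 13.6%, the forkhead site in 3.65% and the GLI site in 0.253%. The Bmp5 window had 43.3% G and C, and the other windows printed had 60.0% to 66.3%. A match describes letters only.

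The wider set of ligand genes held 12 more BMP and GDF genes, of which 4 passed the filter, and 1 fell. Among all tested genes 8.74% were lower in DTR. Bmp8b (chromosome 4, 123105165 to 123132099) stood at 1.39, 1.33 and 0.817 RPKM in WT replicates 1, 2 and 3 and at 0.0849, 0.328 and 0.420 RPKM in DTR replicates 1, 2 and 3. All DTR libraries were lower, with replicate 1 lowest (log2 change -2.34, SE 0.64; limma adjusted p = 0.0499), and without that library the change was -1.63 (0.0179). That call lay at the threshold and was lost in 9 of 16 other settings, including without WT replicate 1 (0.151), WT replicate 2 (0.148), WT replicate 3 (0.119), DTR replicate 2 (0.0671) or DTR replicate 3 (0.0656). The mean log2 RPKM of the DTR libraries lay under the filter level, so Bmp8b was tested only through its WT level. With no filter it did not pass (limma adjusted p = 0.0609). Bmp8a, its close paralogue on the same chromosome, stood at 8.71 to 10.1 RPKM in the WT libraries and at 4.84, 8.98 and 6.17 RPKM in DTR replicates 1, 2 and 3 (log2 difference -0.57, SE 0.24; limma adjusted p = 0.127). Reads could be split between these copies, and Bmp8b overlaps Oxct2b on the same strand (13 to 23 reads per WT library and 0, 86 and 82 for DTR replicates 1, 2 and 3) and Ppie on the other strand (539 to 1024 reads per library), so either value is uncertain. The Bmp8a difference passed without DTR replicate 2 (limma adjusted p = 0.0318) and with array weights (0.0496). Bmp3, whose product opposes other BMPs, differed by 0.05 (SE 0.25, 95% interval -0.55 to 0.65; limma adjusted p = 0.898). Bmp6 had 336 reads over the WT and 172 over the DTR libraries and did not pass (log2 difference -0.81, SE 0.29; limma adjusted p = 0.0899), though it passed in 1 of 16 other settings. The mean log2 RPKM of its DTR libraries also lay under the filter level. Bmp10, Bmp15 and Gdf2 had 0 reads in every library.

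Grem1, the main BMP antagonist gene of the tissue around the crypt, did not pass. Grem1 (ENSMUSG00000074934.3, chromosome 2, 113746164 to 113758646, minus strand) stood at 2.66, 2.66 and 2.30 RPKM in WT replicates 1, 2 and 3 and at 2.96, 3.78 and 2.27 RPKM in DTR replicates 1, 2 and 3. DTR replicate 3 was the lowest of all libraries and DTR replicate 2 the highest, so the groups overlapped. The log2 difference was 0.22 (SE 0.22, 95% interval -0.31 to 0.75; limma adjusted p = 0.493), an interval that includes differences of either sign.

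The other antagonist genes were transcribed at low levels. Nog (ENSMUSG00000048616.4, chromosome 11, 89300638 to 89302332, minus strand), which encodes noggin, was covered by 28, 19 and 22 reads for WT replicates 1, 2 and 3 and by 22, 28 and 22 reads for DTR replicates 1, 2 and 3. Its groups overlapped, with mean levels of 0.195 ± 0.0273 RPKM (WT) and 0.228 ± 0.0367 RPKM (DTR; SD, n = 3 per group; two-sided exact permutation p = 0.3, where 0.1 is the smallest possible). Fitted without the filter on low expression, its log2 difference was 0.23 (SE 0.41, 95% interval -0.72 to 1.18; limma adjusted p = 0.737). That interval includes differences of either sign. Chrdl1 (ENSMUSG00000031283.16, chromosome X, 143285674 to 143394262, minus strand), which encodes a chordin-like antagonist, stood at 0.245, 0.291 and 0.211 RPKM in WT replicates 1, 2 and 3 and at 0.322, 0.433 and 0.391 RPKM in DTR replicates 1, 2 and 3. All DTR libraries lay above all WT libraries, a pattern shared with 25.1% of tested genes, and the difference did not pass (log2 difference 0.62, SE 0.31, 95% interval -0.12 to 1.36; limma adjusted p = 0.182). The mean of its WT libraries lay just under the filter level, so Chrdl1 too was tested only through its DTR level. Chrdl1 is X-linked, and the groups differ in the sex pattern given above.

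Of 19 further antagonists and modulators 11 were tested, and 1 rose and none fell, beside 9.54% of all tested genes higher in DTR. The gene that rose was Chrd (chromosome 16, 20733127 to 20742384), which encodes chordin, a secreted protein that binds BMP2, BMP4 and BMP7. Chrd stood at 0.10, 0.116 and 0.0575 RPKM in WT replicates 1, 2 and 3 and at 0.571, 2.56 and 0.613 RPKM in DTR replicates 1, 2 and 3. All DTR libraries were higher, and DTR replicate 2 lay well above the others. The WT libraries lay under the filter level, so Chrd was tested only through its DTR level. With no filter it passed too (limma adjusted p = 0.0267). The log2 change was 3.47 (SE 0.66; limma adjusted p = 0.0239), or 2.76 without DTR replicate 2 (0.0251), and rests on 27 to 46 reads per WT library and 230 to 987 per DTR library. The start of Chrd overlaps Thpo on the other strand, which was assigned 88 to 282 reads per library. The limma adjusted p was 0.0852, 0.0799 and 0.0925 without WT replicates 1, 2 and 3 and 0.0514 without DTR replicate 3, and with 1 added to the RPKM the log2 change was 0.93 and did not pass (0.0752). Nbl1, an antagonist of the DAN family, stood at 6.09 to 7.34 RPKM in the WT libraries and at 8.50 to 16.1 RPKM in the DTR libraries (log2 difference 0.82, SE 0.25) and did not pass (limma adjusted p = 0.0610), but did without DTR replicate 1 (0.00833) and with array weights (0.0224). Bmp1, which despite its name encodes a protease that cleaves chordin, differed by -0.14 (SE 0.31; limma adjusted p = 0.756), and by -0.52 without DTR replicate 2, where it passed (0.0359).

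Set side by side within each library, transcripts of the member ligand genes were fewer per transcript of the member antagonist genes in DTR. The 12 further ligand genes (12.4 to 13.6 RPKM in WT, 6.93 to 12.3 RPKM in DTR) are left out. So are the 19 further antagonists and modulators (34.7 to 37.4 RPKM in WT, 33.4 to 50.3 RPKM in DTR). The summed level of Bmp2, Bmp4, Bmp5 and Bmp7 over that of Grem1, Nog and Chrdl1 was 3.10, 2.89 and 5.42 for WT replicates 1, 2 and 3 against 1.39, 1.41 and 2.36 for DTR replicates 1, 2 and 3. The ratio of Bmp4 to Grem1 was 0.932 ± 0.105 in WT and 0.481 ± 0.108 in DTR, and that of Bmp5 to Grem1 was 0.497 ± 0.0849 in WT and 0.168 ± 0.0847 in DTR (SD, n = 3 each). The DTR libraries lay below the WT libraries for each of these ratios, which are given as descriptions with no test and combine values already shown. Bmp2 made up 43.2% to 75.3% of the ligand sum in WT and 42.4% to 64.6% in DTR, so the first ratio leans on that gene.

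**Figure D2:**
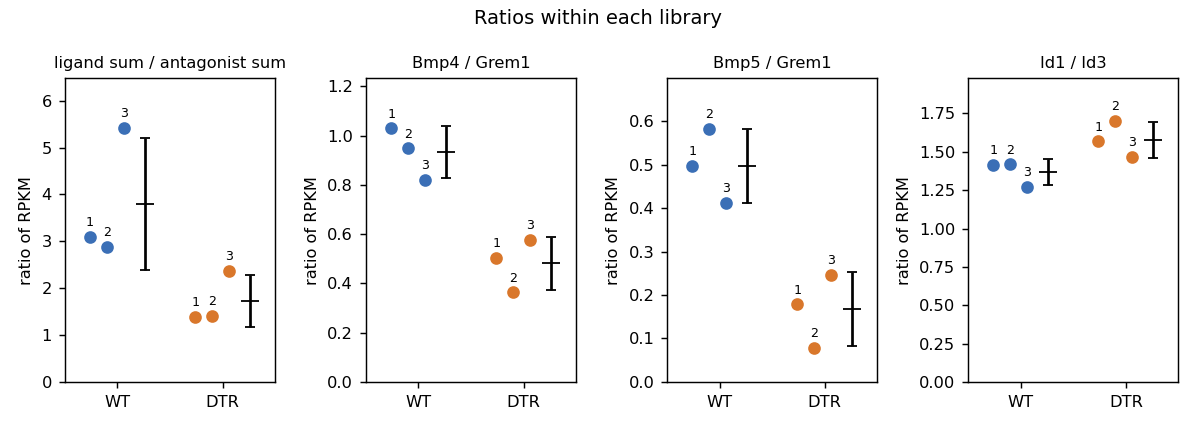
Ratios of RPKM (vertical axes, from 0) within each WT (blue) and DTR (orange) library, with replicate numbers and the mean ± SD (n = 3) in black. The member ligand to member antagonist, Bmp4 to Grem1 and Bmp5 to Grem1 ratios are lower in every DTR library. The Id1 to Id3 ratio is 1.27 to 1.42 in WT and 1.47 to 1.70 in DTR.

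Of 12 measured receptor and co-receptor genes 10 were tested, and 1 fell and none rose, beside 8.74% of all tested genes lower in DTR. The gene that fell was Acvrl1 (chromosome 15, 101128522 to 101145336), which encodes the type I receptor ALK1 of endothelial cells. Acvrl1 stood at 2.99, 2.64 and 2.24 RPKM in WT replicates 1, 2 and 3 and at 1.03, 0.645 and 1.05 RPKM in DTR replicates 1, 2 and 3. The groups were well apart, with a 2.90-fold difference of the means (log2 change -1.56, SE 0.26; limma adjusted p = 0.0172). Without WT replicates 1, 2 and 3 the limma adjusted p was 0.0834, 0.0804 and 0.0702. Bmpr1a, a type I receptor gene used in the epithelium, stood at 13.5 to 15.1 RPKM in the WT libraries and at 17.5 to 24.7 RPKM in the DTR libraries (log2 difference 0.46, SE 0.17) and did not pass (limma adjusted p = 0.0931). Neo1, a receptor for repulsive guidance molecules that act as BMP co-receptors, differed by 0.44 (SE 0.16; limma adjusted p = 0.0947). Among endothelial markers none of 7 passed, their summed level was 4.76 to 8.89 RPKM in WT and 5.69 to 9.94 RPKM in DTR, and their part in the Acvrl1 value was not tested.

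**Figure D3:**
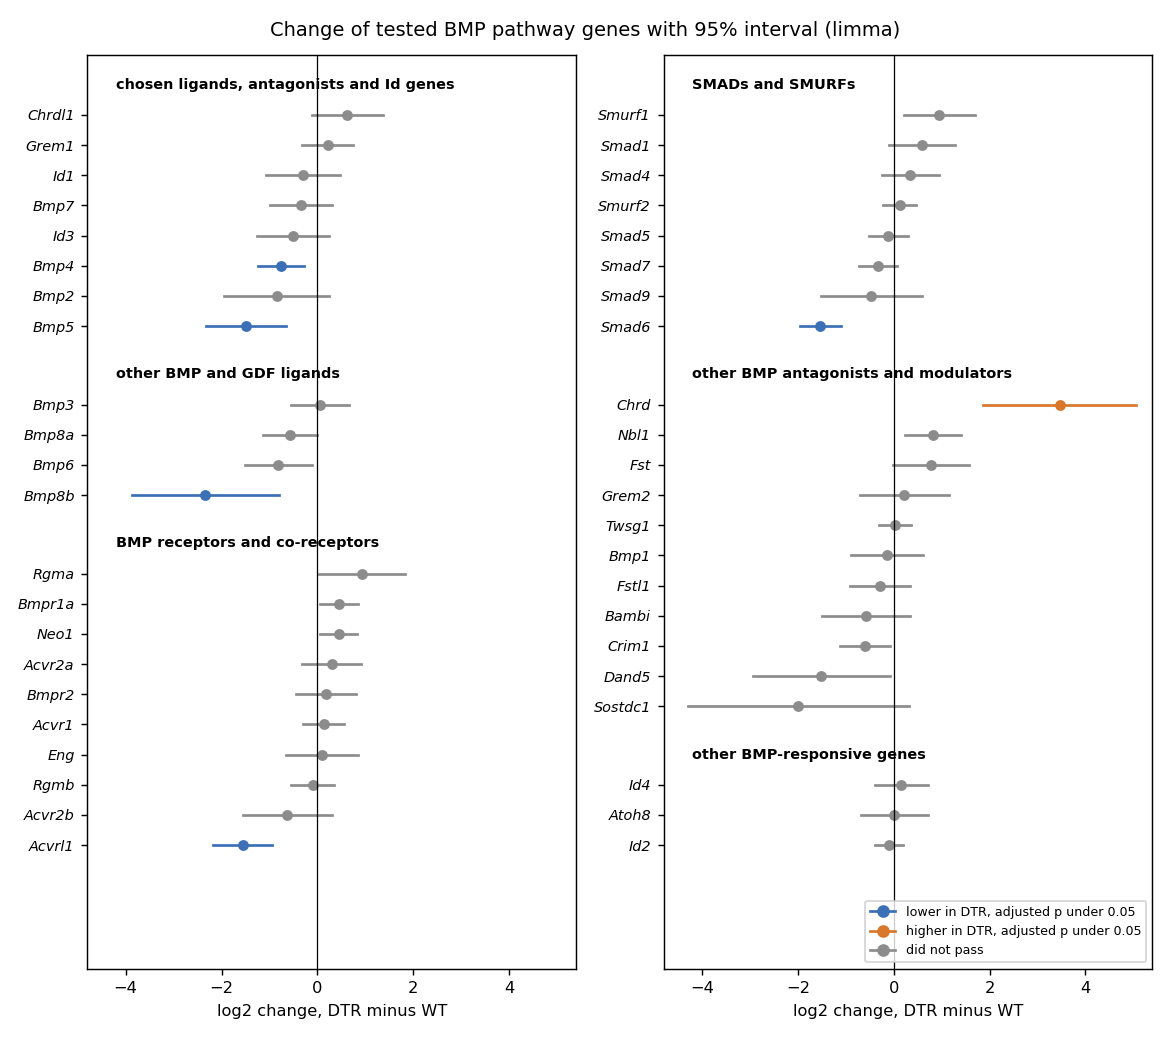
Log2 change of DTR against WT (horizontal axes) with its 95% interval from limma for tested BMP pathway genes by role, where blue marks genes lower and orange genes higher in DTR at an adjusted p of 0.05 and grey those that did not pass. Bmp4, Bmp5, Bmp8b, Acvrl1 and Smad6 are blue and Chrd is orange. Smad6, Smad7, Smad9 and Bambi also belong to the BMP-responsive list and are drawn once.

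Id1 and Id3 did not pass, and their DTR libraries were split. Id1 (ENSMUSG00000042745.9, chromosome 2, 152736251 to 152737410, plus strand) stood at 68.6, 65.0 and 64.5 RPKM in WT replicates 1, 2 and 3 and at 31.8, 78.7 and 60.9 RPKM in DTR replicates 1, 2 and 3. Id3 (ENSMUSG00000007872.3, chromosome 4, 136143497 to 136145755, plus strand) stood at 48.4, 45.9 and 50.7 RPKM in WT replicates 1, 2 and 3 and at 20.3, 46.3 and 41.5 RPKM in DTR replicates 1, 2 and 3. For each gene the WT libraries were nearly equal, DTR replicate 1 lay far below every other library, and DTR replicate 2 lay within or above the WT range. The log2 difference was -0.31 for Id1 (SE 0.32, 95% interval -1.08 to 0.46; limma adjusted p = 0.503) and -0.51 for Id3 (SE 0.31, 95% interval -1.25 to 0.23; limma adjusted p = 0.259). Without DTR replicate 1 the Id1 difference turned to 0.068 and that of Id3 shrank to -0.14. Both genes were covered by 2344 to 6889 reads per library, so counting error is small beside the spread of the DTR libraries.

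DTR replicate 1 was also the library with the least Bmp2. Relative to the WT mean it stood at -1.53 for Bmp2, -1.05 for Id1 and -1.25 for Id3 on the log2 scale, whereas DTR replicates 2 and 3 stood at -0.54 and -0.47 for Bmp2, 0.25 and -0.12 for Id1 and -0.06 and -0.22 for Id3. WT replicate 3, the library with the most Bmp2, stood at 0.88 for Bmp2, -0.03 for Id1 and 0.07 for Id3. A link between Bmp2 and the Id genes was not tested. For Bmp5 the order was another one, with DTR replicate 2 lowest at -2.08. Exocrine pancreas markers summed to 25525 RPKM in DTR replicate 1 and to 7976 and 11171 RPKM in DTR replicates 2 and 3, and their part in the Id values was not tested. WT replicate 2 had the highest pancreas sum, 35881 RPKM, with Id1 and Id3 at 65.0 and 45.9 RPKM.

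**Figure D4:**
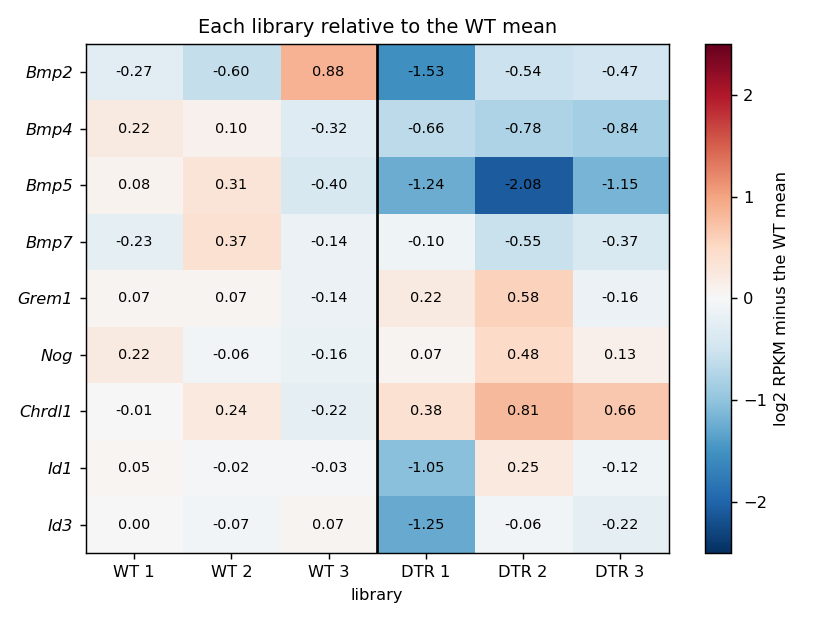
Log2 RPKM of each of the 9 genes (rows) in each library (columns) minus the mean of the 3 WT libraries, as colour (blue lower, red higher) and printed value. Bmp2, Bmp4, Bmp5, Bmp7 and Id3 are below the WT mean in all DTR libraries, and Id1 and Id3 are far below it in DTR replicate 1 alone.

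Among the transducers and other BMP-responsive genes, the inhibitory SMAD gene Smad6 fell. Smad6 (chromosome 9, 63953076 to 64022059), whose product blocks BMP receptors and SMAD1 and which BMP itself induces, stood at 5.46, 5.53 and 4.31 RPKM in WT replicates 1, 2 and 3 and at 1.73, 1.57 and 1.98 RPKM in DTR replicates 1, 2 and 3. The groups were far apart and each was tight, with a 2.90-fold difference of the means (log2 change -1.53, SE 0.18; limma adjusted p = 0.00832). The call was lost narrowly without WT replicate 1 (limma adjusted p = 0.0577) and WT replicate 2 (0.0558). It was 1 of 8 tested SMAD and SMURF genes to pass, beside 18.3% of all tested genes. Smad7, the other inhibitory SMAD gene, stood at 11.6 to 13.3 RPKM in the WT libraries and at 7.98, 10.7 and 11.4 RPKM in DTR replicates 1, 2 and 3 (log2 difference -0.33, SE 0.17; limma adjusted p = 0.192). Smad4, the shared partner, differed by 0.35 (SE 0.24; limma adjusted p = 0.323).

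Of 10 BMP-responsive genes besides Id1 and Id3, 7 were tested and Smad6 was the 1 that passed, beside 18.3% of all tested genes. Id2, a further Id family gene, stood at 14.9, 16.4 and 14.8 RPKM in WT replicates 1, 2 and 3 and at 14.5, 15.5 and 13.1 RPKM in DTR replicates 1, 2 and 3. Its libraries were close together in both groups, also in DTR replicate 1, and the log2 difference was -0.10 (SE 0.12, 95% interval -0.38 to 0.18; limma adjusted p = 0.557). Over the lists of other ligands, receptors, SMADs, other antagonists and other responsive genes, which leave out the 9 members, 36 of 58 listed genes were tested and 4 passed (11.1%), 3 lower and 1 higher, against 18.3% of all tested genes. Of those that passed, Bmp8b and Chrd were tested only through the group in which they were higher. The median log2 change of the 36 was 0.02. The count was 8 without DTR replicate 1, 2 without DTR replicate 3, 0 without WT replicate 1 or 2 and 1 without WT replicate 3.

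Of 10 genes of the villus tip, where BMP activity is known to be highest, 9 were tested and 1 fell. Among all tested genes 8.74% were lower in DTR. The gene that fell was Enpp3, an ectonucleotidase gene, at 242, 236 and 223 RPKM in WT replicates 1, 2 and 3 and 108, 177 and 83.9 RPKM in DTR replicates 1, 2 and 3 (log2 change -0.99, SE 0.27; limma adjusted p = 0.0499). This call was lost in 9 of 17 other settings, among them leaving out any WT library (limma adjusted p = 0.134 to 0.147), DTR replicate 1 (0.0768) or DTR replicate 3 (0.104). Ada, which encodes adenosine deaminase, stood at 1235, 1709 and 1479 RPKM in WT replicates 1, 2 and 3 and at 323, 1032 and 541 RPKM in DTR replicates 1, 2 and 3 and did not pass (log2 difference -1.37, SE 0.42; limma adjusted p = 0.0638). The Ada difference passed without DTR replicate 2 (limma adjusted p = 0.0209), with array weights (0.0219) and with voom on reads (0.0469). The apolipoprotein gene Apoa4 differed by 0.12 (SE 0.41; limma adjusted p = 0.842). The median log2 change of the 9 was -0.01.

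Marker lists of the cells that make BMP ligands and antagonists are given beside these values. The counts here and in the lists that follow stand beside 9.54% of all tested genes higher and 8.74% lower in DTR. In bulk tissue, fewer cells of a type and less RNA per cell cannot be told apart. Of 6 markers of PDGFRA-high subepithelial fibroblasts, which are known as a source of BMP ligands, 1 rose and 1 fell, and their summed level was 7.55 to 9.08 RPKM in WT and 9.16 to 22.3 RPKM in DTR. The sum was led by F3, at 1.46 to 2.96 RPKM in the WT libraries and 3.68 to 17.6 RPKM in the DTR libraries (log2 difference 2.06, SE 0.59; limma adjusted p = 0.0568), whereas 4 of the 6 markers were lower and their median log2 change was -0.27. The gene that fell was Wnt5a (log2 change -1.37, SE 0.30; limma adjusted p = 0.0322), and the gene that rose was Nrg1 (1.69, SE 0.30; 0.0208). Leaving out any WT library or DTR replicate 3 ended the Nrg1 call (limma adjusted p up to 0.0891), and the Wnt5a call was lost in 6 of 16 other settings (up to 0.125). Pdgfra and Foxl1, defining genes of these cells, differed by -0.38 (SE 0.19; limma adjusted p = 0.182) and -1.61 (SE 0.53; 0.0761), and neither passed. For both genes the DTR range was wholly under the WT range, a pattern shared with 22.6% of tested genes. Foxl1 passed in 4 of 16 other settings, without DTR replicate 1 (limma adjusted p = 0.0413) and with array weights (0.0487), voom on reads (0.0483) or 1 added to the RPKM (0.0393).

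None of the 4 tested markers of CD34 and CD81 fibroblasts, a known source of gremlin 1, passed. Their 5 markers, of which Cd81 was the most abundant, summed to 38.2 to 39.1 RPKM in WT and 28.9 to 39.4 RPKM in DTR. Of 6 general fibroblast genes none passed (18.8 to 27.8 RPKM in WT and 17.2 to 36.2 RPKM in DTR), nor did any of 7 smooth muscle genes (127 to 171 RPKM in WT and 167 to 297 RPKM in DTR). Of 7 epithelial markers Vil1 fell (log2 change -0.85, SE 0.22; limma adjusted p = 0.0426) and Krt18 rose (1.27, SE 0.16; 0.0106). Leaving out any WT library raised the limma adjusted p to 0.0607 at most for Krt18 and to 0.142 at most for Vil1, whose call was also lost without DTR replicate 3 (0.0818). Of 6 leukocyte markers Ptprc (-1.54, SE 0.28; limma adjusted p = 0.0218) and Cd3e (-1.33, SE 0.36; 0.0477) fell, and the list summed to 22.3 to 37.3 RPKM in WT and 12.5 to 21 RPKM in DTR. Without any single WT library neither passed (limma adjusted p up to 0.0929 for Ptprc and 0.152 for Cd3e), and Cd3e also failed without any single DTR library. None of the 2 tested glial and neuronal, 3 tested mesothelial, 6 pancreatic or 2 tested fat markers passed. The fat markers summed to 77.9 to 96.0 RPKM in WT and to 112, 366 and 204 RPKM for DTR replicates 1, 2 and 3, nearly all from Cidec, so that the groups did not overlap. The part of any of these lists in the values of the BMP genes was not tested.

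The genes with the pattern most like Bmp4 and Bmp5 were sought by the distance between log2 RPKM values over the 6 libraries, each gene centred on its own mean. Nearest to Bmp4 were Dok2 (distance 0.207), Adam33 (0.235) and Plppr3 (0.255), and nearest to Bmp5 were Adgre1 (0.309), Tnfrsf19 (0.395) and Acvrl1 (0.410). Bmp4 and Bmp5 lay 1.18 apart. Among 15563 genes such near neighbours are found by search, and the distances are descriptions.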

How the data were processed

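Whole small intestine RNA of 3 wild-type and 3 Lgr5-2A-DTR libraries was analysed, grouped by genotype label. The authors deposited log2 RPKM for 55487 genes with gene lengths, and per library its read total over genes and its normalization factor, a ratio that rescales the total. Per the submitters' processing notes the tools were STAR, Subread, featureCounts, edgeR, FastQC and MultiQC and the build mm10. The sources used here give no versions, strand setting or annotation. The titles WT1 and WT2 share the description WT1, so columns were matched by title. Reversing the log scale, with 0.25 as prior count, gave whole reads (within 1e-06) for 100% of values, summing to the deposited totals. Fold changes of genes with few reads depend on that prior count. Read numbers come from these. Replicate libraries differed beyond counting noise (chi-square 69.1 to 396 per gene), so none was treated as the same library deposited again; this does not tell whether libraries share a mouse.

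DTR and WT were compared for the 15563 genes whose mean log2 RPKM exceeded -2. That mean is over both groups, so a gene could pass the filter through a single group. The test was limma's (version 3.58.1, R 4.3.3), two-sided and with a trended variance, and p-values were Benjamini-Hochberg adjusted over all these genes at 0.05. The code was tested on simulated data. Lgr5 and Nog, below this filter, were fitted with all 31972 genes that had reads. Alternatives were other filters, pseudocounts of 0.1 and 1, median centring, quantile normalization, array weights, a robust prior, no trend, voom on reads, the removal of each library in turn and a replicate block. Positions are from GENCODE M21 (mm10, 1-based; 55394 of 55487 IDs matched), promoters from RefSeq. Members and lists were chosen with earlier results of these data known. Named were Lgr5, all members, genes past the threshold and up to 2 of the highest level per pathway list, and the 3 nearest patterns; Bmp6, the marker genes and the genes of the closing section were named after their values were seen. Whether replicate numbers pair the libraries was looked at by the correlation of deviations. It was -0.0109, -0.00244 and 0.165 for equal numbers and -0.123 to 0.114 for unequal ones. With 3 libraries per group this cannot settle the question. A gene of the list in the closing section is not reported here and was left out of its counts.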

Additional observations from a re-analysis of the deposited data

How the results depend on the processing

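The log2 changes of Bmp4 and Bmp5 kept their sign in every alternative that gave a value (Bmp4 -0.92 to -0.49, Bmp5 -1.69 to -0.63), while the calls did not: Bmp4 passed in 9 of 17 and Bmp5 in 11 of 16. The count of members passing was 1 with a filter at 0, where Bmp5 was not tested, 1 with no filter, 1 with voom on reads and 0 with the replicate block, and 0 to 2 when leaving out each library. For the 36 pathway genes the count was 9 with array weights, 2 with a filter at 0 (23 genes tested) and 0 to 8 when leaving out each library. Over all genes it was 4862 with array weights, 1161 with the replicate block and 152 to 5605 when leaving out each library. The causes were not tested. Whether the replicate numbers pair the libraries is not known, so the block may spend degrees of freedom on a shared number only. Differences that did not pass and turned sign were Apoa4 with array weights (-0.064), and, leaving out single libraries, Id1 (-0.58 to 0.068), Bmp3 (-0.15 to 0.24), Bmp1 (-0.52 to 0.068) and Apoa4 (-0.35 to 0.38). Nog and Lgr5 were fitted only without the filter. Among the members, Nog had the fewest reads (19 to 28 per library).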

Other observations

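The sister branch of the same ligand superfamily, TGF-beta and activin, was looked at with a list of 19 genes drawn up after the BMP values were seen. Of 15 tested, 4 rose and 1 fell in DTR, against 9.54% of all tested genes higher and 8.74% lower, and the median log2 change was 0.64. Tgfbr2, the type II receptor gene of TGF-beta, stood at 3.97, 3.41 and 3.83 RPKM in WT replicates 1, 2 and 3 and at 14.2, 12.7 and 19.8 RPKM in DTR replicates 1, 2 and 3. Every DTR library was above every WT library, with means of 15.6 ± 3.78 RPKM against 3.74 ± 0.290 RPKM (SD, n = 3 per group). Its log2 change was 2.03 (SE 0.19; limma adjusted p = 0.00534), and the call held in all 17 other settings. The co-receptor gene Tgfbr3 rose by 1.41 (SE 0.27; limma adjusted p = 0.0241), the activin subunit gene Inhbb by 3.65 (SE 0.58; 0.0162), or by 1.04 with 1 added to the RPKM (0.0275), from 20 to 50 reads per WT library to 167 to 556 per DTR library, and the SMAD repressor gene Ski by 0.64 (SE 0.16; 0.0436). The activin type I receptor gene Acvr1b fell, with a log2 change of -0.69 (SE 0.16; limma adjusted p = 0.0327). Leaving out any WT library ended the calls of Tgfbr3, Inhbb, Ski and Acvr1b (limma adjusted p up to 0.149), and leaving out DTR replicate 3 ended those of Tgfbr3 (0.0527), Ski (0.102) and Acvr1b (0.0834), as leaving out DTR replicate 2 did for Ski (0.0788).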
